A study of Homo sapiens with 24 samples.

Results

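The 10 genes that are used as putative cancer stem cell markers were followed through 24 RNA-seq libraries of 2 head and neck squamous cell carcinoma lines. The markers were chosen by name (CD44, PROM1, ALDH1A1, ALDH1A3, BMI1, MYC, POU5F1, NANOG, NGFR and LGR5), and all 10 were found among the 57820 genes counted. Cal33 and SAS are established human cell lines derived from carcinomas of the tongue. In each line, 3 libraries were made from cells that received the inhibitor GSK-J1 at 4.5 µM together with 4 Gy of x-rays, 3 from cells that received 4 Gy alone, 3 from cells that received GSK-J1 alone and 3 from sham-treated cells, with RNA taken after 24 h. GSK-J1 blocks the histone demethylases JMJD3 and UTX, which remove the repressive methyl marks that Polycomb complexes place on histone H3. Each line is a single established culture model, and the labels do not say whether the 3 replicates of a group were separate cultures, so p-values measure the spread between these libraries only.

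Cancer stem cell markers are transcripts or proteins used to enrich for tumour cells that can renew themselves and seed new tumours. They belong to unrelated families. CD44 is the cell surface receptor for hyaluronan, PROM1 encodes the membrane protein CD133, NGFR (CD271) is the low-affinity neurotrophin receptor of basal epithelial cells, and LGR5 is an R-spondin receptor of intestinal stem cells. ALDH1A1 and ALDH1A3 are cytosolic aldehyde dehydrogenases that make retinoic acid and contribute to the enzyme activity on which ALDH-positive cells are sorted. BMI1 is a subunit of Polycomb repressive complex PRC1, MYC is a transcription factor of growth and ribosome production, and POU5F1 (OCT4) and NANOG are transcription factors of pluripotent cells.

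Library totals ranged between 54200036 and 96848227 counts on the transcript strand, with a median of 76418500. A count minimum of 3, taken as the most that a count of 0 allows, was worth 0.0301 to 0.0575 CPM, the count scaled to library size, depending on the library, which covers counting error only. All 10 squamous epithelium markers examined (KRT5, KRT14, TP63 and others) had a median of at least 1 CPM in each line. Of 12 markers of fibroblasts, leukocytes and endothelium, 4 reached that level in Cal33 (COL1A1, ITGAM, VWF and CDH5) and 3 in SAS (COL1A1, VWF and CDH5). COL1A2 in Cal33, and COL3A1, PTPRC and CD3E in SAS, had a median of 0. The summed level of those 12 markers was 48.4 to 65.8 CPM after GSK-J1 with 4 Gy, 52.9 to 64.9 CPM after 4 Gy, 54.0 to 79.3 CPM after GSK-J1 and 73.4 to 83.8 CPM after sham treatment in Cal33. In SAS it was 19.4 to 30.7, 26.4 to 41.6, 10.3 to 71.5 and 13.5 to 103.7 CPM in the same order of treatments, and its part in the results was not tested. In SAS, 2 libraries stood apart, as 14 genes that are abundant in Cal33 and nearly absent from SAS reached 1.59% of their summed Cal33 level in replicate 1 of GSK-J1 and 0.782% in replicate 1 of GSK-J1 with 4 Gy, against 0 to 0.0114% in the 10 other SAS libraries.

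RefSeq promoter windows (GRCh38.p14, 250 bases before to 50 bases after the start) were held for 6 of the 10 markers. Those of the 3 markers that pass the test after irradiation and have a window are shown, at chr9:72953004-72953303 on the minus strand for ALDH1A1, at chr15:100879581-100879880 on the plus strand for ALDH1A3 and at chr11:35138921-35139220 on the plus strand for CD44. Capitals mark the CCAAT box (CCAAT, either strand) and the octamer (ATGCAAAT, either strand).
ALDH1A1: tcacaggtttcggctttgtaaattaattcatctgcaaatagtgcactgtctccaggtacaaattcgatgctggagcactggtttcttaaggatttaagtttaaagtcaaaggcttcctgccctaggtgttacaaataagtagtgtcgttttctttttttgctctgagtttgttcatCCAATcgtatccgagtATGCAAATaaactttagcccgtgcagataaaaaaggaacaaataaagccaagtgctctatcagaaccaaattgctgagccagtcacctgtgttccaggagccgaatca
ALDH1A3: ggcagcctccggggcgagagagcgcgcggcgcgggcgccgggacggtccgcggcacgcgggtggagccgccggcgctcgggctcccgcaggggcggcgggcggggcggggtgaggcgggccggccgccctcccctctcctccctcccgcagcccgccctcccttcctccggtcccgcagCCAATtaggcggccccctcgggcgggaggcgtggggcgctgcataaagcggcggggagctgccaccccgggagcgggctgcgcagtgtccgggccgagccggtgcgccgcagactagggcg
CD44: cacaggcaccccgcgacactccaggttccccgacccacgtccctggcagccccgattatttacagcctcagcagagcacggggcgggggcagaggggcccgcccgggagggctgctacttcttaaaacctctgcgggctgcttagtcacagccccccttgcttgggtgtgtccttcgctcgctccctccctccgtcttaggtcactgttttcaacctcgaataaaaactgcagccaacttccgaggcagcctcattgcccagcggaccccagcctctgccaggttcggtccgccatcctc
The ALDH1A1 window holds a CCAAT box, an octamer and 7 CpG dinucleotides. The ALDH1A3 window holds a CCAAT box and 46 CpG dinucleotides, and the CD44 window holds neither motif and 18 CpG dinucleotides. Over 35116 human promoter windows of this length, 34.6% held CCAAT and 1.77% held the octamer, with a median of 14 CpG dinucleotides and quartiles of 4 and 28. Neither the E-box (CACGTG, in 7.26% of windows) nor TATAAA (in 11.5%, either strand) occurs in the 3 windows, and a match of letters is a description of the sequence only.

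In the genome build of the counts (hs37d5, GRCh37), the markers lie on 9 chromosomes. CD44 lies on chromosome 11 (35160417 to 35253949, plus strand), PROM1 on chromosome 4 (15964699 to 16086001, minus), NGFR on chromosome 17 (47572655 to 47592379, plus) and LGR5 on chromosome 12 (71833550 to 71980090, plus). ALDH1A1 lies on chromosome 9 (75515578 to 75695358, minus) and ALDH1A3 on chromosome 15 (101417919 to 101456831, plus). BMI1 lies on chromosome 10 (22610140 to 22620413, plus), MYC on chromosome 8 (128747680 to 128753674, plus), POU5F1 on chromosome 6 (31132119 to 31148508, minus) and NANOG on chromosome 12 (7940390 to 7948655, plus). The value of a gene is the sum over its exons.

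The first comparison asked how the markers differ between the lines without treatment. Sham-treated Cal33 cells held more ALDH1A1, POU5F1 and BMI1 transcript than sham-treated SAS cells, and less MYC, NGFR, ALDH1A3 and CD44. PROM1, NANOG and LGR5 had few or no reads in either line. Of the 9 markers that passed the filter of a mean of 1 count per library, 7 differed between the lines by the quasi-likelihood test of edgeR with Benjamini-Hochberg adjustment, and 54.5% of all 24597 genes tested did so. LGR5, with 0 counts in all 6 sham libraries, did not pass the filter.

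ALDH1A1 set the lines apart most. Its level in the sham libraries was 59.0, 67.4 and 31.2 CPM in Cal33, against 0, 0.0799 and 0 CPM in SAS. The 5 reads of SAS all came from replicate 2, and the 12184 reads of Cal33 gave a ratio of 2170 after scaling (95% counting interval 930 to 6686). The fitted log2 fold change was 11.04 (SE 1.03, adjusted p = 7.2e-09 by edgeR). ALDH1A3, which encodes an enzyme of the same step, had the opposite order, with 184, 170 and 186 CPM in Cal33 and 281, 289 and 276 CPM in SAS. The Cal33 and SAS values did not overlap, and the log2 fold change was -0.65 (SE 0.18, adjusted p = 0.00435).

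POU5F1 was read in every sham library of Cal33, with 106, 92 and 119 counts, against 0, 0 and 1 count in SAS. The ratio after scaling was 282 (95% counting interval 50.3 to 11187), and the fitted log2 fold change was 7.73 (SE 0.59, adjusted p = 3.39e-10). The gene shares its locus with TCF19 on the opposite strand, which had 3212 to 6412 counts per library in Cal33 and 1623 to 3579 in SAS. PSORS1C3, which overlaps POU5F1 on the same strand, had 19 to 58 counts per library in Cal33 (400 in all) and 0 to 1 in SAS (1 in all), beside 1551 and 12 counts in all for POU5F1, so the gene of origin of reads in the shared stretch is uncertain. Of the counts over POU5F1 on its own and on the opposite strand together, 94.5 to 100% were on the opposite strand in the SAS libraries, and with counts made without regard to strand the log2 fold change between the lines was 1.72 (adjusted p = 3.9e-07, range over all alternatives 7.4e-15 to 1.27e-06). The near-identical copy POU5F1B had 18 to 77 counts per library in Cal33 and 28 to 67 in SAS, and reads that fit both copies cannot be assigned with certainty.

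MYC was abundant in both lines, at 214, 130 and 199 CPM in sham-treated Cal33 cells and 785, 443 and 664 CPM in sham-treated SAS cells. No library of Cal33 reached the lowest of SAS, and the log2 fold change was -1.80 (SE 0.23, adjusted p = 9.5e-07). NGFR had 107, 69.0 and 165 CPM in Cal33, against 379, 420 and 243 CPM in SAS, a log2 fold change of -1.61 (SE 0.44, adjusted p = 0.00366). Again no Cal33 library overlapped SAS. CD44 had 422, 397 and 545 CPM in Cal33, against 609, 607 and 732 CPM in SAS, a smaller difference without overlap (log2 fold change -0.51, SE 0.15, adjusted p = 0.00546).

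BMI1 was read at a low level in both lines, with 5.48, 7.95 and 6.31 CPM in Cal33 and 2.91, 3.16 and 6.62 CPM in SAS. The groups overlapped, since replicate 3 of SAS lay above 2 Cal33 libraries. The log2 fold change was 0.63 (SE 0.26, adjusted p = 0.0482), and the call was lost when SAS replicate 1 (adjusted p = 0.179) or 2 (0.162) or Cal33 replicate 2 (0.18) or 3 (0.0707) was left out, and in a fit of the compared libraries alone (0.107). The adjusted p of BMI1 ranged between 0.000653 and 0.18 over all alternatives. COMMD3-BMI1, which overlaps BMI1 on the same strand, had 0 to 4 counts per library in Cal33 and 0 in SAS. How reads that fit both genes were counted is not stated, and its part in the low level of BMI1 was not tested. PROM1 had 4, 6 and 3 counts in Cal33 against 5, 4 and 0 in SAS, a ratio of 1.29 (95% counting interval 0.509 to 3.41), and NANOG had 0, 2 and 2 counts against 0, 0 and 1, a ratio of 3.56 (0.353 to 175). Neither PROM1 (adjusted p = 0.815) nor NANOG (0.425) passed the test, and differences were not detectable at this depth.

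Set side by side per kilobase of exon, the sham levels of Cal33 ran in the order MYC (60.4 CPM per kb), CD44 (45.2), ALDH1A3 (31.2), NGFR (27.4), ALDH1A1 (18.5), BMI1 (1.54) and POU5F1 (0.458). In SAS the order was MYC (211 CPM per kb), NGFR (83.7), CD44 (64.5), ALDH1A3 (48.9), BMI1 (0.988), ALDH1A1 (0.00935) and POU5F1 (0.00127). PROM1, NANOG and LGR5 were left out of both orders. In SAS, PROM1 (0.00643 CPM per kb) and NANOG (0.00158) had means above that of POU5F1. The low end of each order rests on few reads.

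**Figure D1:**
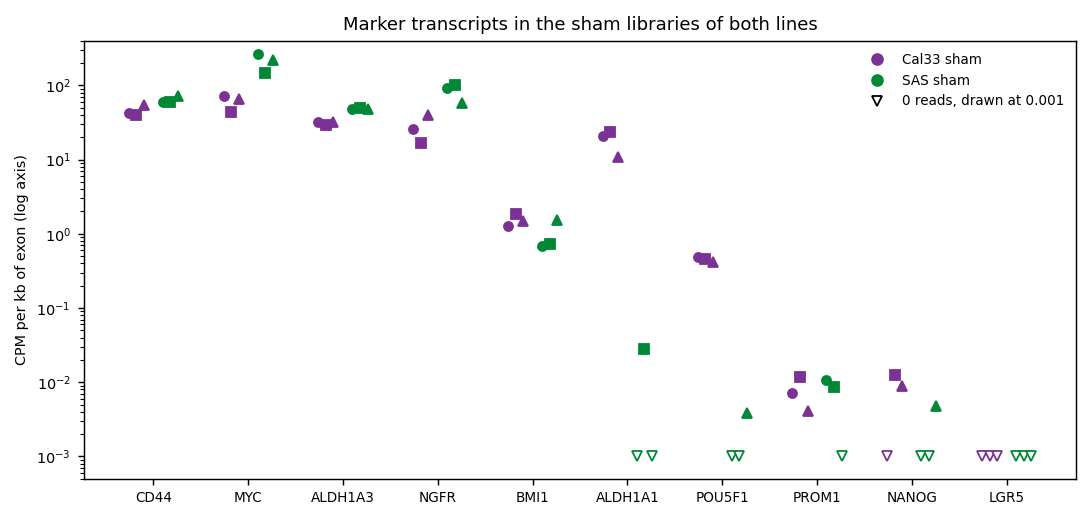
Level of each marker in the 3 sham libraries of Cal33 and of SAS, as CPM per kilobase of exon on a log axis, with one point per library and libraries with 0 reads drawn at the lower edge. ALDH1A1 and POU5F1 of Cal33 lie far above SAS, while MYC, NGFR, ALDH1A3 and CD44 of Cal33 lie below SAS.

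The second comparison asked what 4 Gy did to the markers within each line. CD44 rose in both lines, ALDH1A3 rose and NGFR fell in SAS, and ALDH1A1 fell in Cal33. In SAS, 3 of the 8 markers tested changed, beside 7.08% of all 23416 genes tested (3 beside 24.5% with the replicate block), and in Cal33 2 of 9 changed, beside 6.27% of 24351 genes. In these bulk samples, fewer cells that carry a transcript and less transcript per cell cannot be told apart.

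CD44 moved by a similar size in the lines. In Cal33 it had 807, 602 and 656 CPM after 4 Gy, against 422, 397 and 545 CPM after sham treatment, so that every irradiated library lay above every sham library. Means were 688 ± 106 and 455 ± 79.3 CPM (SD, n = 3 each), and the log2 fold change was 0.61 (SE 0.17, 95% interval 0.25 to 0.97, adjusted p = 0.0479 by edgeR). In SAS, CD44 had 978, 876 and 943 CPM after 4 Gy, against 609, 607 and 732 CPM after sham treatment, again without overlap. The log2 fold change was 0.52 (SE 0.10, 95% interval 0.30 to 0.74, adjusted p = 0.0115). The difference between the lines (Cal33 minus SAS) was 0.07 on the log2 scale, with a 95% interval of -0.36 to 0.51 (adjusted p = 0.984).

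The Cal33 call for CD44 was narrow. It was lost when 4 Gy replicate 1 (adjusted p = 0.156), 2 (0.0522) or 3 (0.115) or sham replicate 1 (0.164) or 2 (0.119) was left out, and its adjusted p ranged between 0.0122 and 0.164 over all alternatives. CD44 was called in 7 of the 15 alternatives, so settings other than a left-out library also ended the call. In SAS the call of CD44 held in every alternative except a fit of all 24 libraries (adjusted p = 0.0577, range 3.55e-05 to 0.0577). Antisense and same-strand transcripts inside CD44 had at most 88 counts per library.

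The retinoic acid enzymes went in opposite directions, each in the line where it was the higher of the lines. ALDH1A1 in Cal33 had 8.95, 20.8 and 20.8 CPM after 4 Gy, against 59.0, 67.4 and 31.2 CPM after sham treatment, and the groups did not overlap. Means were 16.9 ± 6.85 and 52.6 ± 18.9 CPM (SD, n = 3 each), and the log2 fold change was -1.63 (SE 0.44, 95% interval -2.58 to -0.68, adjusted p = 0.0465). The call of ALDH1A1 was lost without 4 Gy replicate 1 (adjusted p = 0.126), 2 (0.071) or 3 (0.0997) or sham replicate 1 (0.134) or 2 (0.106), within a range of 0.00247 to 0.134 over all alternatives. ALDH1A1 was called in 9 of the 15 alternatives, so a setting other than a left-out library also ended its call. ALDH1A3 in SAS had 417, 394 and 379 CPM after 4 Gy, against 281, 289 and 276 CPM after sham treatment, and the groups did not overlap. Its means were 397 ± 19.4 and 282 ± 6.40 CPM (SD, n = 3 each), and the log2 fold change was 0.49 (SE 0.08, 95% interval 0.32 to 0.66, adjusted p = 0.00386). That call held in every alternative except a fit of all 24 libraries (adjusted p = 0.15, range 1.45e-07 to 0.15).

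In the line where each enzyme is the lower, no change was shown. ALDH1A3 in Cal33 had 332, 183 and 164 CPM after 4 Gy and 184, 170 and 186 CPM after sham treatment, where replicate 1 alone stood above sham (log2 fold change 0.34, 95% interval -0.14 to 0.82, adjusted p = 0.394). A difference between the lines in the ALDH1A3 effect was not shown either (-0.16, 95% interval -0.69 to 0.37, adjusted p = 0.925). ALDH1A1 in SAS had 4, 4 and 4 counts after 4 Gy, against 0, 5 and 0 counts after sham treatment, too few to measure a change. The antisense transcript RP11-66B24.4 over ALDH1A3 had 102 to 299 counts per library in Cal33 and 97 to 264 in SAS, and the counts of ALDH1A3 are those of its own strand. Counted without regard to strand, ALDH1A3 had 0.494 to 0.518 times these counts in Cal33 and 0.496 to 0.537 times in SAS. How reads over both genes were handled is not stated, and the reason for the lower counts was not tested.

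NGFR fell in SAS, to 222, 210 and 145 CPM after 4 Gy, against 379, 420 and 243 CPM after sham treatment. The groups did not overlap, with means of 192 ± 41.4 and 347 ± 93.0 CPM (SD, n = 3 each), and the log2 fold change was -0.85 (SE 0.23, 95% interval -1.36 to -0.35, adjusted p = 0.0461). In each group replicate 3 was the lowest. The call of NGFR was lost without any of the 3 libraries of 4 Gy (adjusted p = 0.0666, 0.0969 and 0.17 for replicates 1, 2 and 3), without sham replicate 1 (0.127) or 2 (0.151), without the pair of SAS libraries that stood apart (0.0656), with the size factors of DESeq2 (0.0516), in the compared libraries alone (0.0592) and in a fit of all 24 libraries (0.315), and its adjusted p ranged between 1.37e-06 and 0.315. With the replicate number as a block, which pairs the SAS libraries, the adjusted p was 1.37e-06. In Cal33, NGFR had 144, 50.4 and 49.3 CPM after 4 Gy and 107, 69.0 and 165 CPM after sham treatment, and the groups overlapped (log2 fold change -0.47, 95% interval -1.55 to 0.60, adjusted p = 0.621).

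MYC in Cal33 had 322, 244 and 273 CPM after 4 Gy, against 214, 130 and 199 CPM after sham treatment, without overlap. The log2 fold change was 0.64 (SE 0.20, 95% interval 0.22 to 1.07), and with an adjusted p of 0.0689 it did not pass the test. In SAS, MYC had 767, 597 and 697 CPM after 4 Gy and 785, 443 and 664 CPM after sham treatment, and the groups overlapped (log2 fold change 0.12, 95% interval -0.36 to 0.60, adjusted p = 0.792). The difference between the lines was 0.51 on the log2 scale (95% interval -0.16 to 1.17, adjusted p = 0.655), so a different response of MYC in the lines was not shown.

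**Figure D2:**
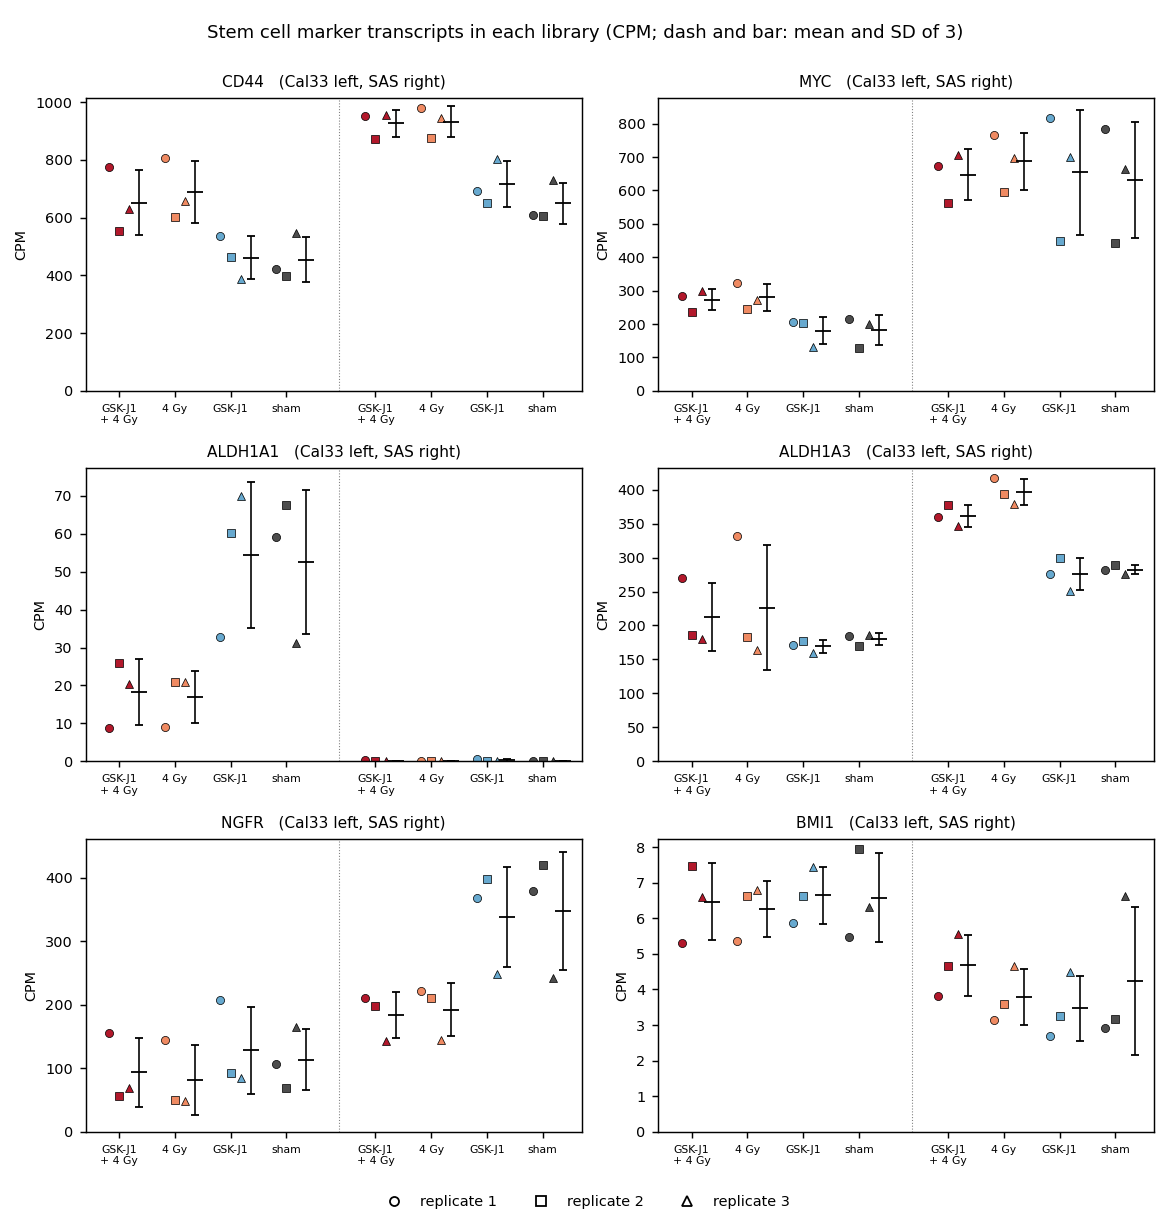
CPM of CD44, MYC, ALDH1A1, ALDH1A3, NGFR and BMI1 in every library, with one point per library, treatments along the x axis and the lines apart. CD44 of the irradiated libraries lies above that of the other libraries in both lines, and in Cal33 ALDH1A1 of the irradiated libraries lies below, between 8.80 and 25.9 CPM.

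BMI1 showed no change after 4 Gy. It had 5.36, 6.64 and 6.79 CPM in irradiated Cal33 cells and 5.48, 7.95 and 6.31 CPM in sham-treated ones (log2 fold change -0.06, 95% interval -0.48 to 0.37, adjusted p = 0.898). In SAS it had 3.14, 3.59 and 4.65 CPM after 4 Gy and 2.91, 3.16 and 6.62 CPM after sham treatment (-0.17, 95% interval -0.82 to 0.48, adjusted p = 0.785). The pluripotency factor POU5F1 had 178, 117 and 167 counts in irradiated Cal33 cells and 106, 92 and 119 counts in sham-treated cells, with a log2 fold change of 0.55 (SE 0.24, 95% interval 0.03 to 1.06) that did not pass the test (adjusted p = 0.193).

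The other markers rested on single reads. In Cal33, PROM1 had 6, 14 and 8 counts after 4 Gy against 4, 6 and 3 after sham treatment (adjusted p = 0.334), and NANOG had 2, 2 and 10 counts against 0, 2 and 2 (adjusted p = 0.393). LGR5 had 1, 0 and 2 counts after 4 Gy in Cal33 against 0 in each sham library, and 0, 0 and 1 count in SAS against 0 in each, and was not tested. In SAS, PROM1 had 5, 1 and 0 counts after 4 Gy against 5, 4 and 0 after sham treatment, POU5F1 had 1, 0 and 4 against 0, 0 and 1, and NANOG had 0 in each library against 0, 0 and 1. Reads on the 10 NANOG pseudogenes came to 17 over all Cal33 libraries and 10 over all SAS libraries, and those on 6 POU5F1 pseudogenes to 59 and 43.

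**Figure D3:**
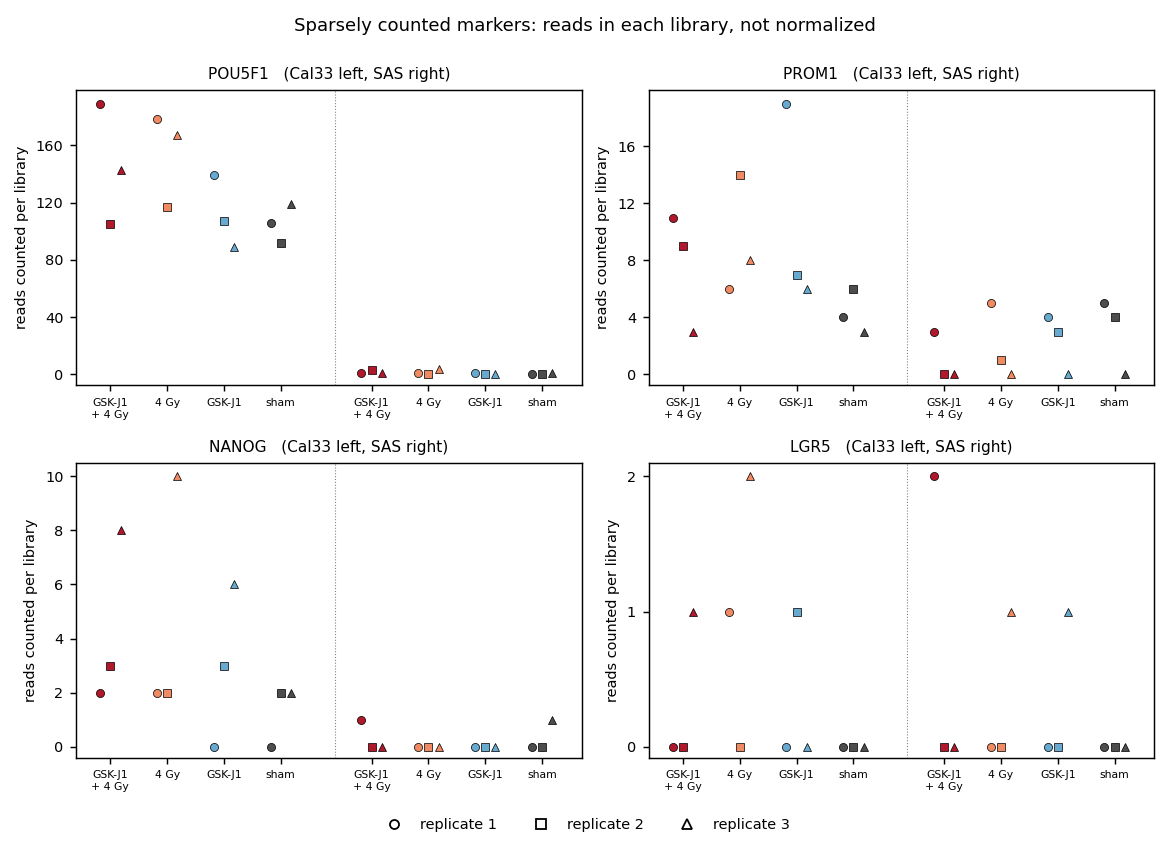
Raw counts of POU5F1, PROM1, NANOG and LGR5 in every library, with one point per library and treatments along the x axis. POU5F1 lies between 89 and 189 counts in Cal33 and at 0 to 4 in SAS, while LGR5 never exceeds 2.

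The third comparison asked whether GSK-J1 alone changed the markers. No marker changed in either line, where no gene of the whole table passed the threshold (0% called in each line). By edgeR, 1 marker in SAS (ALDH1A1) and 0 in Cal33 had an unadjusted p under 0.05, and DESeq2 called none of the markers. Over all genes, 215 in Cal33 and 486 in SAS had an unadjusted p under 0.05, and DESeq2 called 0 and 3. With the replicate number as a block, which pairs the SAS libraries, 0 markers were called in SAS beside 0.0427% of all genes (10 genes), and 0 beside 2.59% (596 genes) in the compared libraries alone. CD44 had 535, 463 and 386 CPM with GSK-J1 and 422, 397 and 545 CPM with sham treatment in Cal33 (log2 fold change 0.02, 95% interval -0.34 to 0.38). In SAS, CD44 had 690, 650 and 804 CPM with GSK-J1 and 609, 607 and 732 CPM with sham treatment (0.14, 95% interval -0.09 to 0.36), and was higher with GSK-J1 in all 3 same-numbered pairs. MYC had 205, 202 and 133 CPM with GSK-J1 and 214, 130 and 199 CPM with sham treatment in Cal33 (-0.01, 95% interval -0.43 to 0.41), and 816, 450 and 699 against 785, 443 and 664 CPM in SAS (0.05, 95% interval -0.43 to 0.53), again higher in all 3 pairs. The share of all genes with the same direction in all 3 pairs was not counted. CD44 and MYC were each called in 0 of 16 alternatives of this SAS comparison.

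Intervals were narrowest for ALDH1A3 in SAS, with 276, 299 and 251 CPM after GSK-J1 and 281, 289 and 276 CPM after sham treatment (log2 fold change -0.04, 95% interval -0.21 to 0.13). NGFR in SAS had 369, 398 and 248 CPM with GSK-J1 and 379, 420 and 243 CPM with sham treatment (-0.04, 95% interval -0.55 to 0.46). In Cal33, where replicate 1 of GSK-J1 was high, NGFR had 207, 93.0 and 85.2 CPM with GSK-J1 and 107, 69.0 and 165 CPM with sham treatment (0.17, 95% interval -0.90 to 1.24). ALDH1A1 in Cal33 had 32.9, 60.1 and 70.0 CPM with GSK-J1 and 59.0, 67.4 and 31.2 CPM with sham treatment, with full overlap (0.05, 95% interval -0.87 to 0.98). ALDH1A3 in Cal33 had 172, 177 and 159 CPM with GSK-J1 and 184, 170 and 186 CPM with sham treatment (-0.09, 95% interval -0.57 to 0.40).

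BMI1 had 5.86, 6.62 and 7.45 CPM with GSK-J1 and 5.48, 7.95 and 6.31 CPM with sham treatment in Cal33 (log2 fold change 0.02, 95% interval -0.41 to 0.44), and 2.68, 3.24 and 4.48 against 2.91, 3.16 and 6.62 CPM in SAS (-0.30, 95% interval -0.95 to 0.35). POU5F1 had 139, 107 and 89 counts with GSK-J1 and 106, 92 and 119 with sham treatment in Cal33 (-0.03, 95% interval -0.55 to 0.48), and 1, 0 and 0 against 0, 0 and 1 in SAS. PROM1 had 19, 7 and 6 counts with GSK-J1 and 4, 6 and 3 with sham treatment in Cal33 (1.09, 95% interval -0.25 to 2.44), and 4, 3 and 0 against 5, 4 and 0 in SAS. NANOG had 0, 3 and 6 counts with GSK-J1 and 0, 2 and 2 with sham treatment in Cal33, and 0 in each against 0, 0 and 1 in SAS. LGR5 had 0, 1 and 0 counts with GSK-J1 in Cal33 and 0, 0 and 1 in SAS, against 0 in each sham library. The interval of PROM1 in Cal33 held no change as well as a rise of several-fold, so a change was not detectable at this depth. NANOG and LGR5 in both lines, and PROM1 and POU5F1 in SAS, had too few counts to measure a change.

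ALDH1A1 in SAS needs its counts beside the fold change. It had 53, 4 and 0 counts with GSK-J1 and 0, 5 and 0 with sham treatment, and 17, 3 and 1 counts with GSK-J1 and 4 Gy. The 53 and 17 counts came from the pair of SAS libraries in which the 14 genes abundant in Cal33 were also read. Those genes' shares of 1.59% and 0.782%, applied to the Cal33 level of ALDH1A1, come to 40.3 and 19.0 counts. How these transcripts came to be read there was not examined, and their part in the ALDH1A1 value was not tested. The fitted log2 fold change of GSK-J1 against sham treatment was 3.39 (SE 1.54, unadjusted p = 0.0465, adjusted p = 1). In the 10 other SAS libraries ALDH1A1 had 0 to 5 counts.

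**Figure D4:**
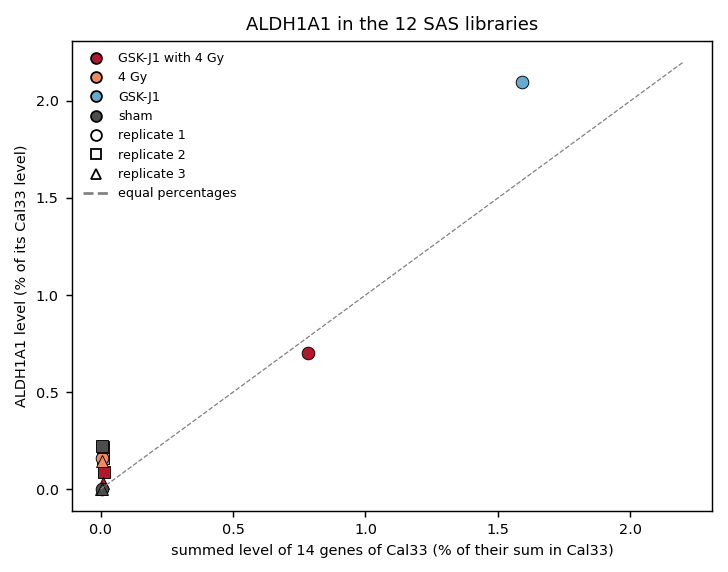
Level of ALDH1A1 in the 12 SAS libraries, as a percent of its Cal33 level, against the summed level of 14 genes of Cal33 in the same library, as a percent of their sum in Cal33, with a dashed line where the percentages are equal. The 10 other libraries lie at 0 to 0.225% of the ALDH1A1 level, and replicate 1 of GSK-J1 (2.10%) and of GSK-J1 with 4 Gy (0.701%) lie apart on both axes.

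The fourth comparison set GSK-J1 with 4 Gy against sham treatment. In SAS, CD44 and ALDH1A3 rose and NGFR fell, 3 of the 8 markers tested, beside 7.86% of all genes (3 beside 26.4% with the replicate block). CD44 had 952, 873 and 953 CPM with the combination, against 609, 607 and 732 CPM with sham treatment (log2 fold change 0.51, SE 0.10, adjusted p = 0.012 by edgeR). ALDH1A3 had 359, 378 and 346 CPM with the combination, against 281, 289 and 276 CPM (0.35, SE 0.08, adjusted p = 0.0198). NGFR had 210, 198 and 143 CPM with the combination, against 379, 420 and 243 CPM (-0.92, SE 0.23, adjusted p = 0.0317). None of these 3 groups of values overlapped its sham values. Each of the 3 calls was lost without the pair of SAS libraries that stood apart (adjusted p = 0.052 for CD44, 0.0651 for ALDH1A3 and 0.059 for NGFR), where the log2 fold changes were 0.48, 0.35 and -1.03. Over all alternatives the adjusted p ranged between 7.5e-05 and 0.0563 for CD44, 0.000409 and 0.301 for ALDH1A3, and 6.08e-07 and 0.257 for NGFR.

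The SAS calls of the combination also depended on single libraries. Leaving out sham replicate 1 or 2 ended all 3 calls, with adjusted p of 0.0543 and 0.0563 for CD44, 0.0666 and 0.0533 for ALDH1A3, and 0.102 and 0.12 for NGFR. Without replicate 1, 2 or 3 of the combination, 1 marker was called each time. The comparison shares its sham libraries with that of 4 Gy alone.

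In Cal33, 0 of 9 markers changed with the combination, beside 4.7% of all genes. By edgeR, 3 markers had an unadjusted p under 0.05, beside 5017 of 24351 genes. DESeq2 called 2 markers, beside 2317 genes. CD44 had 774, 553 and 628 CPM with the combination, against 422, 397 and 545 CPM with sham treatment, without overlap (log2 fold change 0.54, 95% interval 0.18 to 0.90, adjusted p = 0.0851). ALDH1A1 had 8.80, 25.9 and 20.4 CPM with the combination, against 59.0, 67.4 and 31.2 CPM, also without overlap (-1.50, 95% interval -2.45 to -0.55, adjusted p = 0.0714). MYC had 285, 236 and 298 CPM with the combination, against 214, 130 and 199 CPM (0.62, 95% interval 0.20 to 1.04, adjusted p = 0.0915).

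No other marker passed the test with the combination against sham treatment. In Cal33 the log2 fold change was 0.26 for ALDH1A3 (95% interval -0.22 to 0.74, adjusted p = 0.56), -0.25 for NGFR (-1.33 to 0.82, adjusted p = 0.825) and -0.01 for BMI1 (-0.43 to 0.42, adjusted p = 0.992). POU5F1 had 189, 105 and 143 counts with the combination and 106, 92 and 119 with sham treatment in Cal33 (0.47, 95% interval -0.04 to 0.99, adjusted p = 0.281). PROM1 had 11, 9 and 3 counts against 4, 6 and 3, NANOG 2, 3 and 8 against 0, 2 and 2, and LGR5 0, 0 and 1 against 0 in each. In SAS the log2 fold change was 0.03 for MYC (95% interval -0.45 to 0.51, adjusted p = 0.953) and 0.13 for BMI1 (-0.51 to 0.77, adjusted p = 0.836). In SAS, POU5F1 had 1, 3 and 1 counts with the combination against 0, 0 and 1, PROM1 3, 0 and 0 against 5, 4 and 0, NANOG 1, 0 and 0 against 0, 0 and 1, and LGR5 2, 0 and 0 against 0 in each.

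**Figure D5:**
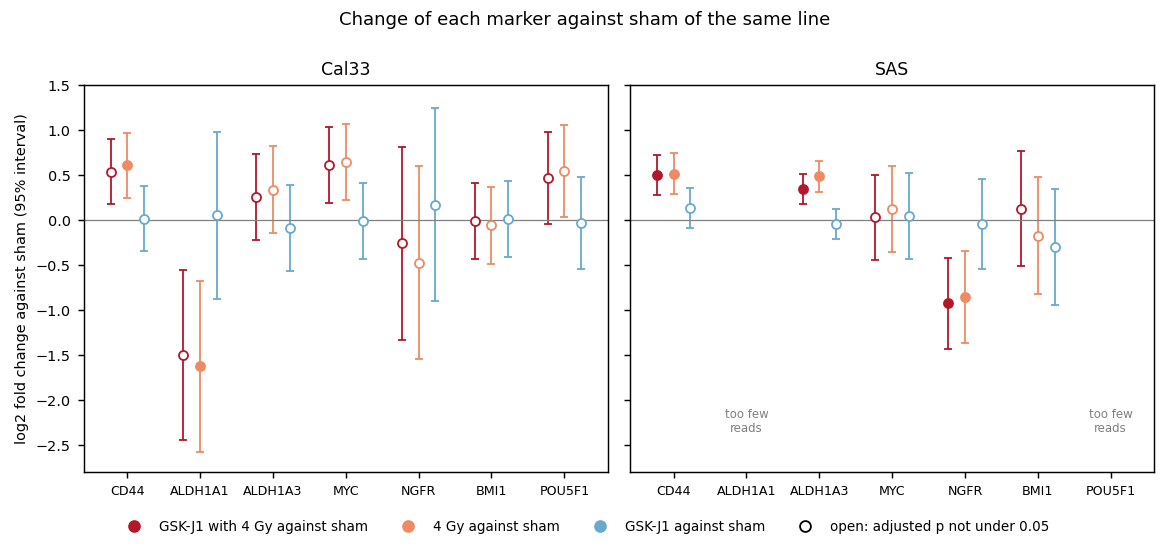
Log2 fold change against sham treatment of CD44, ALDH1A1, ALDH1A3, MYC, NGFR, BMI1 and POU5F1, for GSK-J1 with 4 Gy, 4 Gy and GSK-J1 in each line, with 95% intervals. ALDH1A1 and POU5F1 in SAS are marked as having too few reads, and PROM1, NANOG and LGR5 are not drawn. Filled points passed the test, which for 4 Gy are CD44 and ALDH1A1 in Cal33 and CD44, ALDH1A3 and NGFR in SAS, and all points of GSK-J1 alone are open.

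The combination was then set against each of its parts. Against 4 Gy alone, 0 markers changed in either line by edgeR, where no gene of the whole table passed the threshold (0% called in each line), with 244 genes in Cal33 and 438 in SAS at an unadjusted p under 0.05, 0 markers had an unadjusted p under 0.05 and DESeq2 called none. In SAS the log2 fold change was -0.01 for CD44 (95% interval -0.24 to 0.21), -0.14 for ALDH1A3 (-0.31 to 0.03) and -0.07 for NGFR (-0.58 to 0.43). In Cal33 it was -0.07 for CD44 (95% interval -0.43 to 0.29), 0.13 for ALDH1A1 (-0.81 to 1.06) and -0.03 for MYC (-0.45 to 0.39). Every other marker tested (PROM1, ALDH1A1, BMI1, MYC and POU5F1 in SAS, and PROM1, ALDH1A3, BMI1, POU5F1, NANOG and NGFR in Cal33) had an adjusted p of 1. With the replicate number as a block in the compared libraries alone, ALDH1A3 (-0.14, adjusted p = 0.0154, range 0.0154 to 1) and BMI1 (0.30, adjusted p = 0.0289, range 0.0289 to 1) were called in SAS, beside 7.98% of all genes. The same fit called NGFR in Cal33 (0.25, adjusted p = 0.0379, range 0.0379 to 1), beside 0.515% of all genes.

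Against GSK-J1 alone, ALDH1A3 rose in SAS, 1 of the 8 markers tested, beside 4.42% of all genes. ALDH1A3 had 359, 378 and 346 CPM with the combination and 276, 299 and 251 CPM with GSK-J1 (log2 fold change 0.39, SE 0.08, adjusted p = 0.0171). CD44 had a log2 fold change of 0.37 (adjusted p = 0.0618) and NGFR of -0.88 (0.0525). The adjusted p was 0.449 for BMI1, 0.475 for POU5F1, 0.513 for ALDH1A1, 0.676 for PROM1 and 0.971 for MYC. With the replicate block, 4 markers were called, beside 21.5% of all genes, namely CD44 (adjusted p = 0.00164), ALDH1A3 (0.000389), NGFR (1.41e-06) and BMI1 (0.45, adjusted p = 0.0374). The block fit of the compared libraries alone called 4 as well, beside 20.2% of all genes. Over all alternatives the adjusted p ranged between 0.0016 and 0.328 for CD44, 0.000132 and 0.307 for ALDH1A3, 5.87e-07 and 0.341 for NGFR, and 0.0162 and 0.744 for BMI1. Without the pair of SAS libraries that stood apart, ALDH1A3 had the same log2 fold change of 0.39 with an adjusted p of 0.149, and the call was also lost without replicate 1 (0.0506) or 2 (0.0818) of the combination or replicate 1 of GSK-J1 (0.0653).

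In Cal33, 0 markers were called against GSK-J1 alone, beside 5.11% of all genes. ALDH1A1 had a log2 fold change of -1.55 (adjusted p = 0.0611), CD44 of 0.52 (0.0908) and MYC of 0.63 (0.0842). The adjusted p was 0.237 for POU5F1, 0.405 for ALDH1A3, 0.673 for NGFR, 0.771 for NANOG, 0.812 for PROM1 and 0.963 for BMI1. With the replicate block ALDH1A1, CD44 and MYC were called, beside 8.67% of all genes, with adjusted p of 0.0145, 0.0478 and 0.0466. That block also holds the sham libraries of Cal33, whose replicate numbers were not taken to pair. In the block fit of the compared libraries alone NGFR was called too (-0.46, adjusted p = 0.00534), beside 18.4% of all genes. Over all alternatives the adjusted p ranged between 9.83e-11 and 0.181 for ALDH1A1, 0.00303 and 0.252 for CD44, 0.000878 and 0.244 for MYC and 0.00534 and 0.947 for NGFR.

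The 6 irradiated libraries of each line, with or without GSK-J1, can also be set beside the 6 that were not irradiated. In Cal33, CD44 and MYC lay entirely above and ALDH1A1 entirely below, 3 of 9 markers tested, beside 12.8% of all genes. In SAS, CD44 and ALDH1A3 lay entirely above and NGFR entirely below, 3 of 8 markers tested, beside 11.6% of all genes. CD44 was the marker whose irradiated and other libraries did not overlap in both lines. The interaction of GSK-J1 with 4 Gy was called for 0 markers in either line, where 0% of all genes were called in each line. There, 0 markers had an unadjusted p under 0.05 by edgeR, beside 209 genes in Cal33 and 399 in SAS. DESeq2 called 0 markers and 0 genes. The difference between the lines was called for 0 markers in each of the 3 treatments, where 0%, 0.427% and 0.634% of all genes were called for GSK-J1, 4 Gy and the combination. In the same order, 1, 0 and 0 markers had an unadjusted p under 0.05 by edgeR, beside 394, 2466 and 2675 genes. DESeq2 called 0 markers, beside 1, 439 and 550 genes.

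Genes of the markers' pathways were counted in the same fits, to be read beside the 6.27% of all genes called after 4 Gy in Cal33 and the 7.08% called in SAS. Of 17 other aldehyde dehydrogenases, 0 rose and 4 fell after 4 Gy in Cal33 and 0 rose and 4 fell in SAS. The median log2 fold change of these 17 was -0.55 in Cal33 and -0.28 in SAS, against 0.01 and -0.02 over all genes tested. ALDH3A2, which oxidises fatty aldehydes, fell in both lines (-1.01 in Cal33 with adjusted p = 0.00474 and -0.74 in SAS with adjusted p = 0.00288), as did ALDH5A1, which clears succinic semialdehyde (-0.80 with adjusted p = 0.004 and -0.47 with adjusted p = 0.0296). ALDH3A1, an enzyme of the cornea and upper airway epithelium, fell in Cal33 (-2.34, adjusted p = 0.0139), and ALDH3B1 (-0.92, adjusted p = 0.0115) and ALDH3B2 (-0.68, adjusted p = 0.0233) fell in SAS. The value of ALDH1A3 in SAS had the opposite sign.

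Among retinoid signalling genes, 2 rose and 3 fell of 18 tested in Cal33, and 0 rose and 4 fell of 17 tested in SAS after 4 Gy, beside 6.27% and 7.08% of all genes. DHRS3, which reduces retinal to retinol, fell in both lines (-0.58, adjusted p = 0.00823, in Cal33 and -0.86, adjusted p = 0.000428, in SAS). In SAS the receptors RARG (-0.58, adjusted p = 0.00258) and RXRA (-0.54, adjusted p = 0.00295) and the retinol dehydrogenase RDH10 (-0.61, adjusted p = 0.00859) fell. In Cal33 the receptor RXRG (1.84, adjusted p = 0.0124) and CYP26B1, which degrades retinoic acid (1.81, adjusted p = 0.0282), rose. The medians were -0.14 in Cal33 and -0.18 in SAS.

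Among hyaluronan genes and CD44 partners, 0 rose and 1 fell of 17 in Cal33 (RDX, -0.49, adjusted p = 0.0405), and 1 rose and 0 fell of 17 in SAS (EZR, 0.38, adjusted p = 0.0117), shares no higher than the 6.27% and 7.08% of all genes. RDX and EZR encode radixin and ezrin, which tie CD44 to the actin cortex. Of 22 MYC target genes, 0 were called in Cal33, where all 22 had positive values with a median of 0.41. In SAS 4 rose and 0 fell (NOP16, 0.44, NME1, 0.54, SRM, 0.42, and BOP1, 0.39), with a median of 0.26 and 21 positive values. Of the 14 genes of the MYC network, MXD1, which competes with MYC for MAX, was the one called, and it rose in both lines (1.82, adjusted p = 0.0333, in Cal33 and 0.44, adjusted p = 0.0372, in SAS).

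Of 19 PRC1 partners of BMI1, 0 were called in Cal33 and 1 fell in SAS (CBX7, -0.51, adjusted p = 0.015). Of the pluripotency factors, 8 were tested in Cal33, where KLF4 rose (1.56, adjusted p = 0.0103) and SOX2 fell (-1.28, adjusted p = 0.037), and 9 in SAS, where TFCP2L1 rose (0.46, adjusted p = 0.0229) and SOX2 fell (-1.82, adjusted p = 0.0476). Among neurotrophins, their receptors and related genes, NTF3, a ligand, rose in Cal33 (1.55, adjusted p = 0.0188), 1 of 12 tested. In SAS, 1 of 13 rose (TNFRSF19, 2.57, adjusted p = 0.00907) and 1 fell (SORCS2, -1.35, adjusted p = 0.0223). Of 13 genes of the LGR and R-spondin axis tested in each line, 0 were called.

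Of other surface and stem cell markers, 2 rose and 0 fell of 18 in Cal33, and 3 rose and 1 fell of 14 in SAS. SOX9, a transcription factor of epithelial progenitors, rose in both lines (1.94, adjusted p = 0.0101, in Cal33 and 1.06, adjusted p = 0.00451, in SAS). NT5E (CD73) rose in Cal33 (1.46, adjusted p = 0.0398), while ENG (1.94, adjusted p = 0.00134) and the drug transporter ABCG2 (1.03, adjusted p = 0.0251) rose and ALCAM fell (-0.29, adjusted p = 0.0413) in SAS. Of the 10 squamous markers, 1 rose and 0 fell in Cal33 and 2 rose and 2 fell in SAS, with medians of 0.30 and -0.15. KRT6A, a keratin of activated epithelium, rose in both lines (1.06, adjusted p = 0.0236, in Cal33 and 2.15, adjusted p = 0.0037, in SAS). In SAS the basal keratin KRT14 rose (0.79, adjusted p = 0.00366), and the desmosomal cadherin DSC3 (-0.91, adjusted p = 0.000414) and KRT17 (-0.47, adjusted p = 0.00679) fell. GSK-J1 alone, the combination against 4 Gy and the interaction called none of these genes.

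With the combination against sham treatment, the called aldehyde dehydrogenases again numbered 0 higher and 4 lower of 17 in each line, beside 4.7% of all genes in Cal33 and 7.86% in SAS. ALDH3A2 (-0.92 in Cal33 and -0.64 in SAS) and ALDH5A1 (-0.60 in Cal33 and -0.45 in SAS) were among them. Retinoid genes numbered 2 higher and 1 lower of 18 in Cal33, and 0 higher and 5 lower of 17 in SAS, beside the same shares. SOX9 rose by 1.92 in Cal33 and 1.06 in SAS on the log2 scale, and MXD1 by 1.80 and 0.42. These values share the sham libraries with those of 4 Gy.

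The genes whose log2 CPM ran most like each marker were listed by Pearson's r over the 12 libraries of a line, without a test, since all points share library depth and treatment. In Cal33, CD44 was nearest to LAMA3 (r = 0.995), a laminin chain of the basement membrane, ALDH1A1 to PAPSS1 (0.992) and FDPS (0.99), MYC to SESN2 (0.989) and NGFR to NGEF (0.993). ALDH1A3 in Cal33 had looser neighbours, led by NUAK2 (0.932). In SAS, CD44 was nearest to ELK3 (0.988) and ARID3B (0.988), ALDH1A3 to MAP2K1 (0.98), MYC to PPP1R15B (0.964) and NGFR to ST6GALNAC2 (0.989), with SORCS2, a receptor of the same list of neurotrophin genes close behind (0.987). No gene was among the 3 nearest to a marker in both lines.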

How the data were processed

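Total RNA of Cal33 and SAS cells was sequenced from stranded, ribosomal RNA-depleted libraries. The authors aligned the reads to hs37d5 with STAR 2.5.3a, handled them with SAMtools 1.6 and counted them per gene with featureCounts of Subread 1.5.1, and the deposited values are raw counts per gene and library. The counts of reads on the transcript strand were used here (94.4 to 95.2% of reads assigned with strand), and a count without regard to strand was an alternative.

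Genes whose counts averaged 1 or more were tested with the quasi-likelihood test of edgeR 4.0.16 (limma 3.58.1, R 4.3.3) after TMM scaling, at a Benjamini-Hochberg adjusted p of 0.05 over all genes tested, without covariates. The 12 libraries of a line shared a fit within lines, and all 24 shared a fit between lines. CPM use the TMM-scaled totals of all 24 libraries, CPM per kilobase divide by exonic length, and standard errors are the fold change over the square root of F. Tables were handled with Python 3.11.15, pandas 2.3.3, NumPy 2.4.6 and SciPy 1.17.1, and DESeq2 1.42.0 was an alternative. In simulated counts with 200 changed genes, the 4 Gy comparison recovered 62% of 2-fold and 89% of 4-fold changes in SAS with 4 false calls, and 49% and 83% in Cal33 with 7 false calls. The changed genes were drawn from genes with higher mean counts than PROM1, NANOG and LGR5, and in SAS than ALDH1A1 and POU5F1. These recovery shares therefore do not describe those markers.

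Same-numbered replicates were taken to pair where the correlation of their deviations from the group means exceeded 0.1 in all 3 pairs. The lowest r was 0.112 to 0.294 over the 5 comparisons within SAS, 0.418 for the combination against 4 Gy and 0.112 against GSK-J1 in Cal33, and -0.369 to -0.351 in the Cal33 comparisons with sham treatment and -0.0452 between the lines, where the numbers were not taken to pair. The pairing comes from the data, since the labels give replicate numbers only.

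The markers and the lists of related genes were chosen with earlier results of these data known. All markers tested are given in every comparison of 2 groups, and as counts of calls in the tests of interaction and of difference between the lines, and of each list up to 4 called genes with the smallest p are named. A result that this rule would name is not reported here. The nearest genes are the 3 of highest r among genes with a mean of at least 10 CPM. The 14 genes of Cal33 had at least 20 CPM in every Cal33 library and a median of at most 0.05 CPM in SAS. Alternatives were another scaling, other filters, DESeq2, other sets of libraries, the replicate block, counts without strand and each replicate left out. No test beyond these was run, and the version of the gene annotation is not given in the sources used here.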

Additional observations from a re-analysis of the deposited data

Results flagged for a closer look

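Among the listed genes, 3 responded differently in the lines to GSK-J1 with 4 Gy against sham treatment, beside 0.634% of all genes tested (156 of 24597). The test was of the difference itself in the fit of all 24 libraries (Cal33 minus SAS, log2 scale, edgeR with Benjamini-Hochberg adjustment). For HAS2, a hyaluronan synthase, the difference was -5.56 (SE 1.17, adjusted p = 0.0309), with 0.283 ± 0.0490 CPM after the combination and 0.821 ± 0.404 CPM after sham treatment in Cal33 (-1.51, adjusted p = 0.126), and 0.173 ± 0.127 against 0.00899 ± 0.00817 CPM in SAS (4.02, adjusted p = 0.0321, SD, n = 3 each). The SAS sham level of HAS2 lay below the level of 3 counts, with 5, 12 and 29 counts after the combination and 0, 1 and 1 after sham treatment, a ratio of 19.6 (95% counting interval 5.13 to 167), so the sizes of 4.02 and -5.56 depend on 2 reads. For KRT17, a keratin of basal and activated epithelium, the difference was 2.06 (SE 0.44, adjusted p = 0.0314), with 720 ± 294 against 270 ± 137 CPM in Cal33 (1.44, adjusted p = 0.0583) and 325 ± 15.1 against 510 ± 48.2 CPM in SAS (-0.66, adjusted p = 0.00101). For DHRS3, a retinal reductase, the difference was 0.70 (SE 0.14, adjusted p = 0.0283), with 263 ± 15.8 against 352 ± 24.8 CPM in Cal33 (-0.40, adjusted p = 0.0429) and 68.9 ± 4.35 against 149.5 ± 14.8 CPM in SAS (-1.13, adjusted p = 0.000116). The response of none of the 10 markers passed this test.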

How the results depend on the processing

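The counts of markers called depended on the setting, as did the counts over all genes, so a changed marker count is not a result about the markers. Counts over all genes are given below for DESeq2 and the replicate block. The marker counts under the other settings have no share over all genes beside them and describe the setting only. In a fit of all 24 libraries, 0 markers were called for 4 Gy and for the combination against sham treatment in SAS, 0 for the combination against GSK-J1 in SAS, and 1 for 4 Gy, the combination against sham treatment and the combination against GSK-J1 in Cal33. Without the pair of SAS libraries that stood apart, 0 were called for the combination against sham treatment and against GSK-J1 in SAS. For 4 Gy in Cal33, counts without strand and the compared libraries alone each gave 1. For the combination against GSK-J1 in SAS, DESeq2 and no count filter gave 3, the filter of filterByExpr 2 and the compared libraries alone 0. Over all genes, DESeq2 called 2242 there and the main test 1036. In Cal33, DESeq2 and no count filter gave 2 for the combination against sham treatment and 2 against GSK-J1. Over all genes, DESeq2 called 2317 and 2470 there, and the main test 1144 and 1245. With the replicate block, 4 were called for the combination against GSK-J1 in SAS (4 in the compared libraries alone), 3 in Cal33 (4 in the compared libraries alone) and 3 for the combination against sham treatment in Cal33, where the numbers were not taken to pair. Over all genes, the block called 5029 (4787 in the compared libraries alone), 2112 (4494) and 1910 in the same order. The block in the compared libraries alone gave 2 for the combination against 4 Gy in SAS and 1 in Cal33, beside 1903 and 127 genes. For 4 Gy in Cal33, where the numbers were not taken to pair either, the block gave MYC an adjusted p of 0.0339 (range over all alternatives 0.0278 to 0.186). In the compared libraries alone the block ended the call of CD44 (0.0534, range 0.0122 to 0.164). Neither block fit changed another marker's call.

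With single replicates left out, the count of markers called was 2 to 3 for 4 Gy in SAS, 0 to 3 for the combination against sham treatment in SAS, 0 to 3 against GSK-J1 in SAS, 0 to 2 for 4 Gy in Cal33 and 6 to 7 for Cal33 against SAS. The share of all genes called in these fits is not given, so the counts are not a result about the markers. No called value changed direction. Of 1156 values under the other alternatives, 1098 kept their side of the threshold, 20 lost it and 38 gained it, and 25 uncalled values changed sign. Of 1085 values with a replicate left out, 1049 kept their side, 34 lost it and 2 gained it, and 167 uncalled values changed sign. PROM1, NANOG, LGR5, and in SAS ALDH1A1 and POU5F1, are limited by depth.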
